A study of Mus musculus with 6 samples.

Results

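Genes of DNA replication and mitosis were read on arrays of mouse retina taken 7 days after a compound had been injected into the vitreous, SH-42 on 3 arrays and SH-80 on 3; both are known only by code name. The 36 genes were listed by name and not by a threshold on their values, though earlier results of these data were known. They were found on the arrays through the RefSeq identifiers of the probes. All 36 were represented, by 48 probes, among 39429 probes in all. After probes that were not well above background had been left out, 33 of the 36 remained among 24078 features tested. Topoisomerase Top2a and the mitotic kinases Aurkb and Bub1 were too dim to stay in the tests. Of the 33, 23 were well above background in both channels on all 6 arrays, and these carry the firmest values.

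The study used adult male C57BL/6 mice, 12 per group, given 1 µM SH-42, 1 µM SH-80 or phosphate-buffered saline in the right eye. Retinas were pooled by 4, and each compound has 3 arrays that set its RNA against control RNA. By the labels the Cy3 (green) channel holds the compound's RNA and the Cy5 (red) channel the saline control's on every array, with no dye exchange, so a dye effect common to all arrays is part of each compound's ratio and cancels only between compounds. Values are log2 of Cy3 over Cy5, negative where the channel labelled control was brighter. The deposited value table of the series runs the other way, Cy5 over Cy3, and all signs below, including those of SH-42 minus SH-80, would turn if Cy5 held the treated RNA. With 12 control mice in pools of 4 only 3 control pools would exist, so arrays may share them, and p-values measure only the spread between these arrays. In whole tissue, more cells of a type and more RNA per cell cannot be told apart.

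The share of probes well above background ranged from 58.3% to 63.1% over the arrays in Cy3 and from 70.9% to 76.7% in Cy5, without saturated spots. The rod genes Gnat1, Nrl, Pde6a, Pde6b and Sag, read as a check of the tissue, were well above background in both channels on every array. SH-42 replicate 1 stood apart: over all features, the correlation of its log2 ratios with any other array was between -0.16 and 0.16, against 0.47 to 0.87 among the other 5. SH-42 replicates 1 and 2 lay on 1 slide, and SH-42 replicate 3 and the SH-80 arrays on another. Results below that rest on SH-42 replicate 1 are given with and without that array where both were computed.

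As background, a dividing cell loads the MCM helicase on its DNA, fires it with Cdc45 and GINS, copies the DNA behind the PCNA clamp with nucleotides made by ribonucleotide reductase, thymidylate synthase and thymidine kinase, and then separates the copies under cyclin B and Cdk1, Polo and Aurora kinases. Many of these genes are switched on together by E2F factors through sites near their starts, and the later ones through a CHR element and CCAAT boxes. Neurons of the adult retina have left the cycle, whereas microglia, blood-borne immune cells, vessel cells and glia can divide.

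To show the DNA in front of members that behaved differently, the 250 bases before the start of 6 of them are printed here as examples. They were read from RefSeq promoter windows of build GRCm38.p6. The 6 do not stand for their groups, whose counts are given in the next paragraph. Capitals mark the letters searched on both strands: E2F sites as TTTCCCGC, TTTCGCGC, TTTGCCGC or TTTGGCGC, the CHR element as TTTGAA, and the CCAAT box as CCAAT. The first 4 genes were at least 2-fold higher in Cy5 of SH-42 replicate 1 than on the other arrays, as described below, and Rrm1 and Ccne1 differed by less than 1.5-fold. Their positions are Mki67 chr7:135716380-135716629 on the minus strand; Cdk1 chr10:69352913-69353162 on the minus strand; Cdc20 chr4:118437344-118437593 on the minus strand; Mcm6 chr1:128359706-128359955 on the minus strand, Rrm1 chr7:102441445-102441694 on the plus strand, Ccne1 chr7:38107491-38107740 on the minus strand.
Mki67: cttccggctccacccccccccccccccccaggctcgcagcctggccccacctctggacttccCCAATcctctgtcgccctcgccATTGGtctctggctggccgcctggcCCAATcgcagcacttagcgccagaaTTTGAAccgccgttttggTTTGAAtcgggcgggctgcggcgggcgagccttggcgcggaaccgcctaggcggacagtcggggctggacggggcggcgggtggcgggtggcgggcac
Cdk1: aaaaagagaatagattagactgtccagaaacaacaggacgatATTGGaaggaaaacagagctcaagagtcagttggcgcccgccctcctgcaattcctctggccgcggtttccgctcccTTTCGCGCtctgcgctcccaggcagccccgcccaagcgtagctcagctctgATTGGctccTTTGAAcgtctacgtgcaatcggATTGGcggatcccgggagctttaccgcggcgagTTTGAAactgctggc
Cdc20: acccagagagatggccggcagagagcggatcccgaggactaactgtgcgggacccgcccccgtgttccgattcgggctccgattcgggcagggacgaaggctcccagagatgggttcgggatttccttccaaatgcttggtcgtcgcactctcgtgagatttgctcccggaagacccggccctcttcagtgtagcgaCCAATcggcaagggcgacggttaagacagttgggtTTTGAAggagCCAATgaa
Mcm6: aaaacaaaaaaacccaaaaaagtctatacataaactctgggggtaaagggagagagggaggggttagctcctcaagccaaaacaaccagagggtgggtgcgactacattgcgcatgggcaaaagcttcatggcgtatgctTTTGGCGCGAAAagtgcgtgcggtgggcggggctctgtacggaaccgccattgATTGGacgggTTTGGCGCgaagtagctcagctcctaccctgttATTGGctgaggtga
Rrm1: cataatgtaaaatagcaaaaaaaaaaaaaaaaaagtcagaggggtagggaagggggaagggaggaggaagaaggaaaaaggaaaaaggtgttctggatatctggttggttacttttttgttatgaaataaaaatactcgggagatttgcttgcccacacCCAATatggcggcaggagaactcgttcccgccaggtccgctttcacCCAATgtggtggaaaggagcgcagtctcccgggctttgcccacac
Ccne1: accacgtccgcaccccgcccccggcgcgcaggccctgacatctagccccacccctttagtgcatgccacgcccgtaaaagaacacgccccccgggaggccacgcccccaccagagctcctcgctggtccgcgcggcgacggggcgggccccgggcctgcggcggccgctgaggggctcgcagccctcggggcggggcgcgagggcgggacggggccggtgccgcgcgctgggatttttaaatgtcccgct

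Cdk1, the kinase of mitotic entry, has 1 E2F match that starts 131 bases before the start, CHR matches at 71 and 15 bases and 3 CCAAT boxes. Mki67, which encodes the coat protein of mitotic chromosomes, has 2 CHR matches and 3 CCAAT boxes. Cdc20, the activator of the anaphase-promoting complex, has a CHR match near its start with CCAAT boxes on both sides. Mcm6, a subunit of the replicative helicase, has 3 E2F matches, of which those at 110 and 106 bases overlap. In Rrm1, the large subunit of ribonucleotide reductase, only CCAAT boxes were found, and in Ccne1, cyclin E1, none of these letters. Other members under 2-fold have them: Mcm5 has 2 E2F matches, and Kif11, Mcm2 and Cdc45 have 1 CHR match each. Birc5 and Tk1, which were at least 2-fold higher, have none of these letters. Over the series, 28 of the 36 members matched a RefSeq window and gave 30 windows; the members without one were Gins2, Dlgap5, Ccna2, Aurkb, Kif20a, Tpx2, Ccnd1 and Mcm4. An E2F match was in 20.0% of these, against 1.86% of all 32851 windows of this length. CHR letters were in 26.7% against 16.0%, and CCAAT in 83.3% against 33.8%. Of the 11 matched members that passed the probe filter and were at least 2-fold higher in Cy5 of SH-42 replicate 1, 3 had an E2F match, 4 a CHR match and 9 a CCAAT box. Of the other 15 that passed the filter, 3, 3 and 12 had them. Top2a and Bub1, also matched, did not pass it and are in neither count; Top2a read 2.29-fold higher there, with its Cy5 signal well above background on 2 arrays. A match is a description of letters and not a measured binding site.

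Cy3, the channel labelled compound, held these genes at nearly 1 level on all arrays. Over all features, signals of different arrays correlated at 0.997 to 0.999 in Cy3 and at 0.962 to 0.998 in Cy5. Which channel holds the treated RNA was not tested. In Cy3 the median SD of a member's log2 signal over the 6 arrays was 0.0595, close to the 0.0683 of all features. In Cy5 it was 0.304, against 0.142 for all features, and it was 0.110, against 0.0961, when SH-42 replicate 1 was left out. The members' spread was thus in the channel labelled control and for the most part on a single array.

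**Figure D1:**
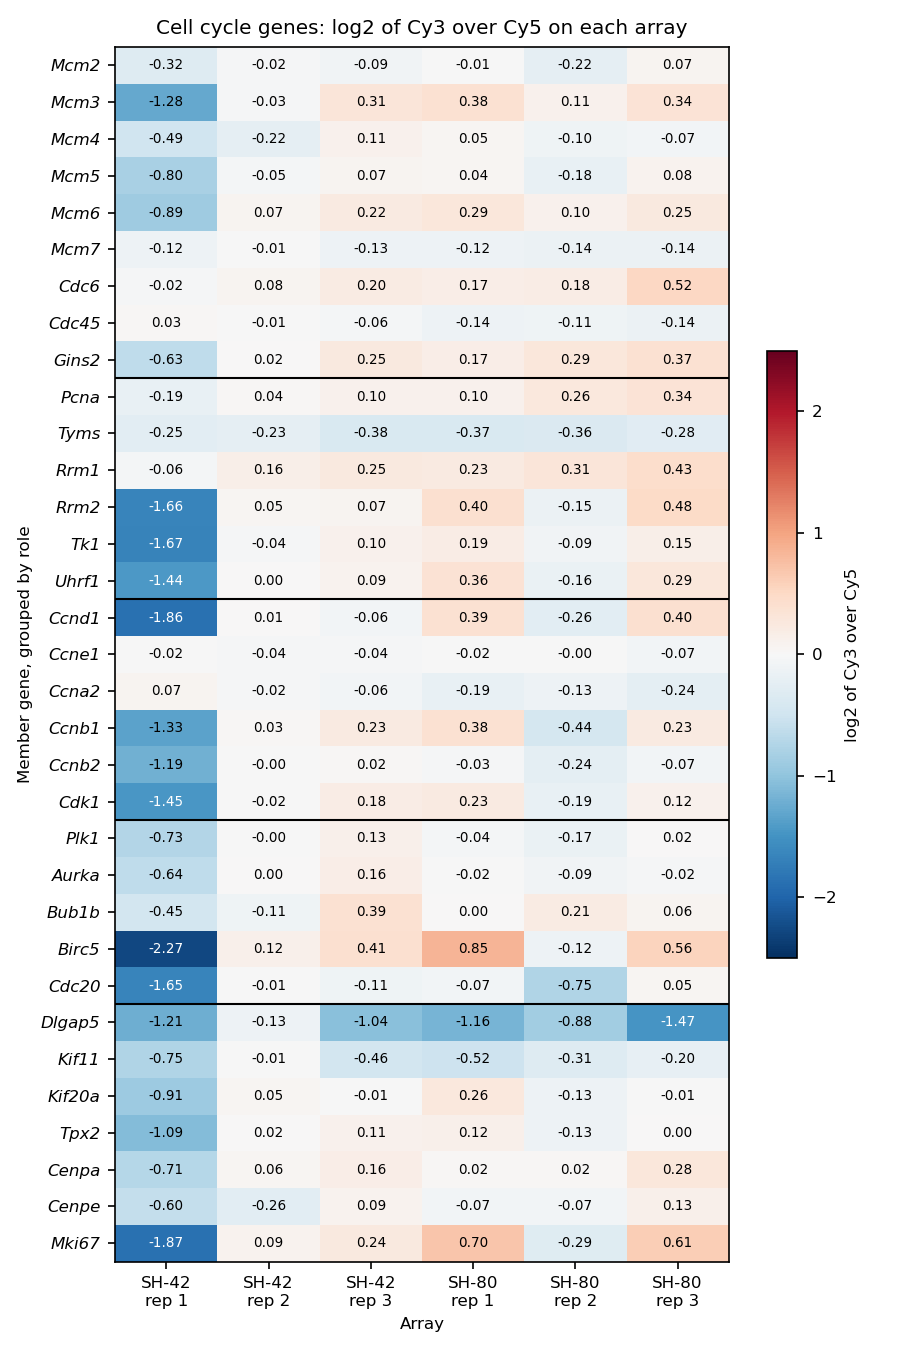
Log2 of Cy3 over Cy5 of the 33 members that passed the probe filter (rows, grouped by role, with lines between roles) on each of the 6 arrays (columns), with the value in each cell. Blue cells, where Cy5 was brighter, fill the column of SH-42 replicate 1, whose lowest value is -2.27 for Birc5, while Dlgap5 is negative on all arrays.

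On SH-42 replicate 1, 31 of the 33 members had a negative ratio, where 12741 of 24078 features did. The members' median was -0.75, and 13 were at or below -1, where 4.51% of all features were. The member medians on SH-42 replicates 2 and 3 were -0.00 and 0.10, and on SH-80 replicates 1 to 3 they were 0.05, -0.13 and 0.08. In Cy5, 28 of the 33 members had their highest signal of the 6 arrays on SH-42 replicate 1, against 28.4% of all features, and 14 were at least 2-fold above the median of the other 5 arrays, against 5.57% of all features. In Cy3, 0 of the 33 reached 2-fold on that array, and their median excess was 0.01 on the log2 scale. Only 1 array shows this, so these counts describe that array and carry no test.

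**Figure D2:**
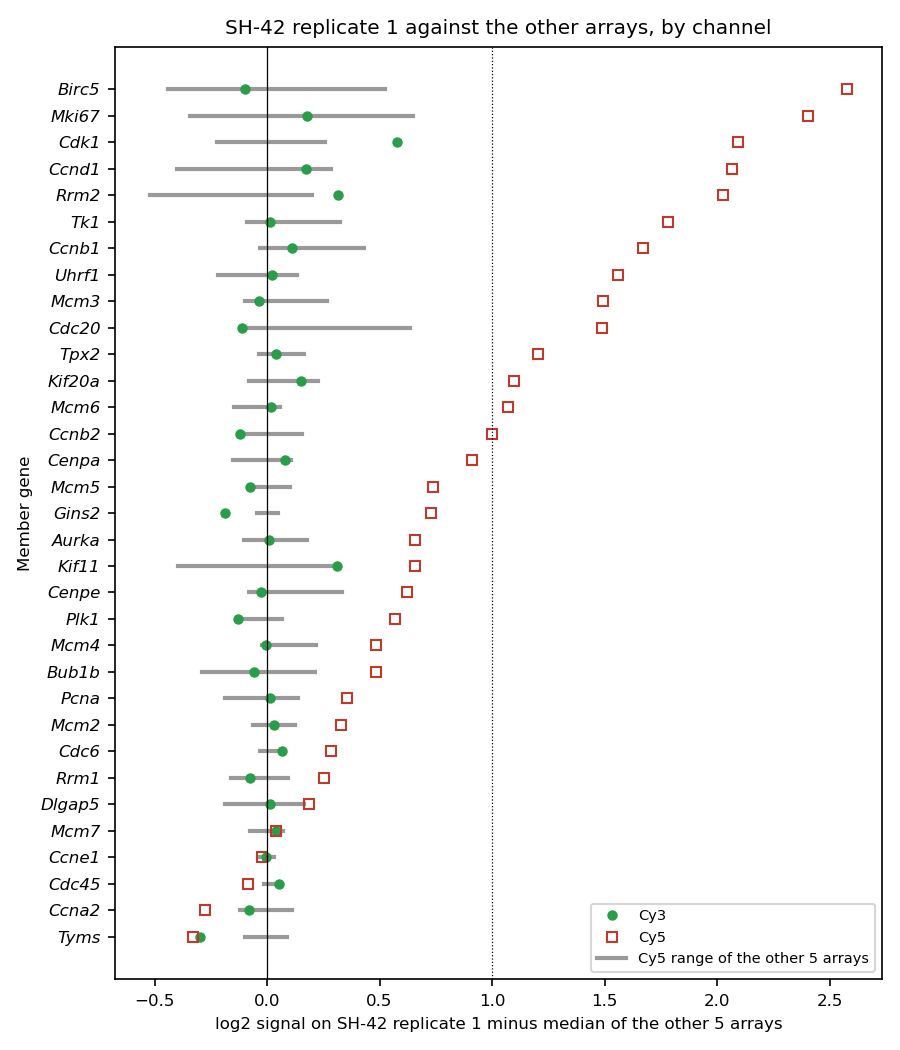
Log2 signal on SH-42 replicate 1 minus the median of the other 5 arrays (horizontal axis) for each of 33 members (vertical axis), in Cy3 (filled circles) and Cy5 (open squares). Grey bars give the range of the other 5 arrays in Cy5 around their median, and the dotted line marks 2-fold. Birc5 and Mki67 lie farthest to the right in Cy5, and Tyms and Ccna2 lie below 0.

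Among the replication helicase and origin genes the excess in Cy5 of SH-42 replicate 1 was uneven. Mcm3 had a log2 Cy5 signal of 10.25 on SH-42 replicate 1, and of 9.03 and 8.76 on SH-42 replicates 2 and 3 and 8.66, 8.85 and 8.67 on the SH-80 arrays. That is 2.82-fold above the median of the other 5, and its Cy3 signals spanned only 8.97 to 9.07. Mcm6 read 11.36 in Cy5 there, against 10.14 to 10.35 elsewhere, or 2.10-fold, with Cy3 at 10.40 to 10.54. For both, SH-42 replicate 1 stood clear of the other arrays, whose values lay close together. Mcm5 read 9.51 in Cy5, against 8.71 to 8.87 on the others, and Mcm4 10.83 against 10.32 to 10.56. Gins2, a subunit of the GINS complex that completes the active helicase, read 8.36 against 7.58 to 7.67. These 3 were above the range of the other arrays by less than 2-fold over their median. Mcm2 read 9.44 against 9.05 to 9.23. Mcm7 read 10.69, inside the 10.57 to 10.72 of the other arrays, and Cdc45, which joins the helicase when origins fire, read 7.99, below the 8.06 to 8.11 of the others. Subunits of the same helicase ring thus differed on this array, from 1.03-fold for Mcm7 to 2.82-fold for Mcm3. Cdc6, the helicase loader, was not well above background in Cy3 on any array and read 7.17 in Cy5 against 6.85 to 6.96.

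The genes of nucleotide supply, the fork and chromatin copying divided in the same way. Rrm2, the small subunit of ribonucleotide reductase that dividing cells make in S phase, read 9.36 in Cy5 of SH-42 replicate 1 and 6.82 to 7.54 on the other arrays, or 4.07-fold. Tk1, thymidine kinase, read 8.84 against 6.97 to 7.38, or 3.44-fold. Uhrf1, which carries DNA methylation to the new strand, read 8.95 against 7.17 to 7.52, or 2.95-fold. All 3 were dim in Cy3: Rrm2 was well above background there on 1 array, Tk1 on none and Uhrf1 on 2. Pcna, the sliding clamp, read 13.14 in Cy5 of SH-42 replicate 1 and 12.92, 12.79, 12.78, 12.68 and 12.60 on the other arrays in their order, with Cy3 at 12.88 to 12.96. Rrm1 read 10.65 in Cy5 against 10.24 to 10.49. Both were above the range of the others, by 1.28-fold and 1.19-fold over their median. Thymidylate synthase, Tyms, went the other way: it read 8.46 in Cy5 against 8.69 to 8.87, and its Cy3 signal was also lowest there, at 8.20 against 8.32 to 8.51. Tyms was lower in both channels of that array.

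**Figure D3:**
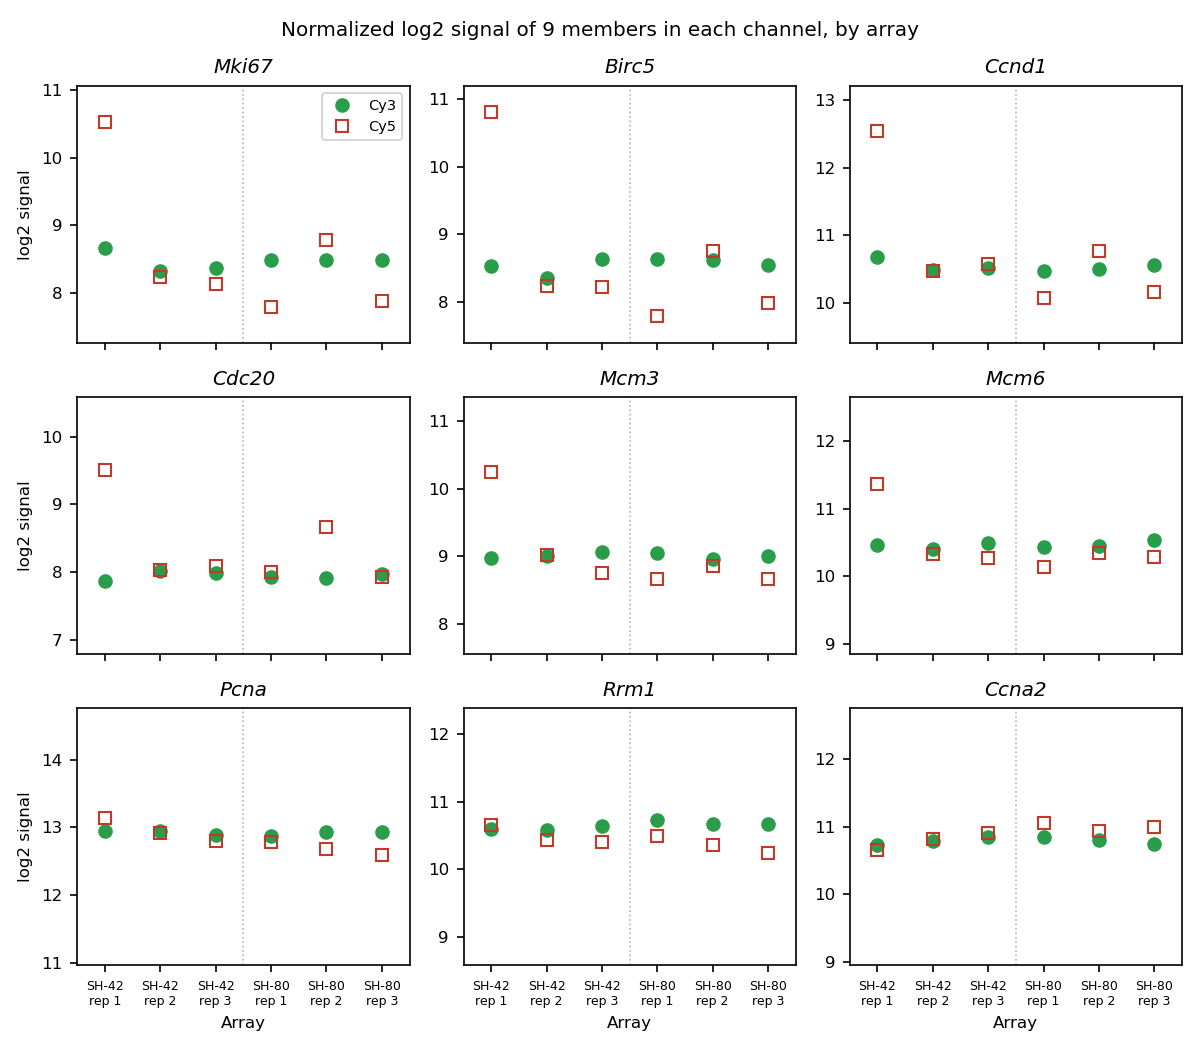
Normalized log2 signal (vertical axis, the same span in each panel) of 9 members on each of the 6 arrays (horizontal axis) in Cy3 (filled circles) and Cy5 (open squares); the dotted line separates SH-42 from SH-80 arrays. In the panels of Mki67, Birc5, Ccnd1, Cdc20, Mcm3 and Mcm6 the Cy5 point of SH-42 replicate 1 stands above all others, while Cy3 points stay level, and in Pcna, Rrm1 and Ccna2 both channels stay close.

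Cyclins and their kinase held both extremes. Ccnd1, cyclin D1, which links growth signals to the start of the cycle and is also made by glia, read 12.54 in Cy5 of SH-42 replicate 1, against 10.47, 10.58, 10.07, 10.76 and 10.16 on the other arrays. This was 4.18-fold over their median, with Cy3 at 10.46 to 10.67. Ccnb1 and Ccnb2, the cyclins of mitotic entry, read 8.68 against 6.98 to 7.44 and 9.47 against 8.37 to 8.62, or 3.18-fold and 2.00-fold. Cdk1 read 9.05 against 6.73 to 7.21, or 4.27-fold, though its Cy5 signal was well above background on only 4 arrays and Cy3 on 1. These 4 stood clear of all other arrays. Ccne1 and Ccna2, the cyclins of S-phase entry and progress, did not join them: Ccne1 read 9.66 in Cy5 against 9.65 to 9.72, and Ccna2 10.66 against 10.81 to 11.05, the lowest of the 6.

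Of the mitotic kinases and checkpoint genes, Birc5, the survivin subunit of the chromosomal passenger complex, differed most. It read 10.80 in Cy5 of SH-42 replicate 1 and 8.24, 8.23, 7.79, 8.75 and 7.99 on the others, 5.97-fold over their median, and 8.36 to 8.64 in Cy3. Cdc20 read 9.51 in Cy5, against 8.66 on SH-80 replicate 2 and 7.93 to 8.09 on the other 4, or 2.81-fold. In both, SH-80 replicate 2 was the next highest. The Polo kinase Plk1 read 9.38 against 8.69 to 8.87, the spindle pole kinase Aurka 9.04 against 8.28 to 8.56, and the checkpoint kinase Bub1b 10.45 against 9.67 to 10.18. These 3 exceeded all other arrays by less than 2-fold over their median. Bub1 was spotted 10 times on each array and was not well above background in Cy3 on any. Its mean log2 ratio was -0.82 on SH-42 replicate 1, with an SD of 0.0718 over the 10 spots, and -0.01 to 0.23 on the other arrays. Aurkb was not well above background in either channel on any array, and no level can be given for it.

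At the spindle, the kinetochore and the chromosome surface, Mki67 led. Its log2 Cy5 signal was 10.54 on SH-42 replicate 1 and 8.23, 8.13, 7.79, 8.78 and 7.88 on the others, or 5.29-fold over their median, while Cy3 stayed at 8.33 to 8.67. As with Birc5, SH-80 replicate 2 came next. The spindle assembly factor Tpx2 read 8.31 against 7.07 to 7.26, and the cytokinesis motor Kif20a 8.22 against 7.04 to 7.35, or 2.31-fold and 2.14-fold. Cenpa, the centromeric histone, read 8.80 against 7.74 to 7.99, and Cenpe, the kinetochore motor, 10.20 against 9.50 to 9.91. Kif11, the motor that pushes spindle poles apart, read 7.87 against 6.82 to 7.52. Dlgap5, a microtubule-binding spindle protein, read 7.68 against 7.30 to 7.66, or 1.14-fold. By role, the median log2 excess in Cy5 was 0.48 for helicase and origin genes, 0.96 for nucleotide supply and fork, 1.33 for cyclins and Cdk1, 0.66 for mitotic kinases and checkpoint and 0.91 for spindle and chromosome surface. The ranges of the 5 roles overlapped.

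Probes of a gene did not always read alike. Both Mki67 probes were low on SH-42 replicate 1, at -1.87 and -2.51. For Cdk1 only the brightest of 3 probes was clearly low, at -1.45 against -0.22 and 0.13, and for Ccnb1 the 3 probes read -1.33, -0.41 and -0.20. For Birc5 they read -2.27, -0.91 and -0.35, for Tpx2 -1.09 and -0.20, and for Uhrf1 -1.44 and 0.03. The brightest probe is the one reported, and several of the others were near background.

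Markers of other cell types differed on the same array and channel, where 5.57% of all features were at least 2-fold higher. Of 7 microglial markers, 6 were at least 2-fold higher in Cy5 of SH-42 replicate 1, among them Tyrobp by 4.10, C1qa by 3.31 and Aif1 by 2.73 on the log2 scale. The log2 of their summed Cy5 signal, in which the brightest genes weigh most, was 15.70 there and 12.94 to 13.81 elsewhere. Of 5 measured granulocyte and monocyte markers, 3 were at least 2-fold higher, Lyz2 by 4.62, S100a8 by 3.68 and S100a9 by 3.48. The log2 of the summed Cy5 signal of the 5 was 13.74 against 9.97 to 10.62. The neutrophil enzyme Mpo differed by 0.09. The glial genes Gfap, Nes and Vim were higher by 3.05, 1.59 and 1.43. Among Muller glia markers 4 of 7 were at least 2-fold higher, including Apoe and Sox9, and Glul was lower by 0.30. Endothelial Cdh5 and Kdr were higher by 1.30 and 1.10, whereas Pecam1, Cldn5 and Tek stayed under 2-fold. Skeletal muscle markers reached 2-fold in 4 of 6, with Myh4 at 3.62. The log2 of the muscle markers' summed Cy5 signal was 12.445 there, but 12.59 on SH-80 replicate 2, and 9.67 to 10.03 on the rest. The rod genes Gnat1, Pde6b, Pde6a, Nrl and Sag were lower, by 0.78, 0.75, 0.64, 0.55 and 0.29. The 8 lens genes had a median log2 difference of -1.28 from the median of the other arrays, against -0.07 for all features. The log2 of the lens genes' summed Cy5 signal varied over all arrays, from 16.43 to 19.51. It was 17.44 on SH-42 replicate 1, above the 16.43 and 16.53 of SH-80 replicates 1 and 3. Of 6 T and NK cell markers, only Cd3e and Nkg7 were measured, at -0.19 and -0.06. The log2 of the summed Cy5 signal of the 33 members was 15.34 on SH-42 replicate 1 and 14.49 to 14.65 on the others. In Cy3 it was 14.63 to 14.65 throughout. The part of these cell types in the members' values was not tested.

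The comparison of SH-42 with control asks whether the compound changed these genes. By limma with Benjamini-Hochberg adjustment over all features, 0 of the 33 members passed a threshold of 0.05, where 0.602% of all features did, 14 higher and 131 lower; at an unadjusted p under 0.05 there were 3 members and 5645 features. Those 3 were Dlgap5 at -0.80 ± 0.218 (SE, n = 3 arrays), Kif11 at -0.41 ± 0.140 and Tyms at -0.29 ± 0.0565, with adjusted p of 0.144, 0.170 and 0.0996. Dlgap5 and Kif11 were not well above background in Cy3 on any array, so of their differences only the bounds given below apply. On the mean of the 3 arrays they were at least 1.22-fold and 1.14-fold lower. Their log2 ratios on SH-42 replicate 2 were only -0.13 and -0.01. The members' median was -0.26, against -0.03 for all features, and 31 of 33 were negative, which followed SH-42 replicate 1: without that array the median was 0.05, 21 were positive and 0 passed, against 1.82% of all features. Mki67 gave -0.51 with a 95% interval from -1.54 to 0.52, and 0.17 from -0.39 to 0.72 without the array. Ccnd1 gave -0.64 from -1.53 to 0.25, and -0.03 from -0.42 to 0.36 without it.

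For SH-80, 3 of the 33 members passed, where 14.7% of all features did, 1111 higher and 2421 lower. Thymidylate synthase was lower, and ribonucleotide reductase's large subunit higher, in the channel labelled compound. A dye effect common to all arrays is part of both ratios, and its size was not tested. Tyms had log2 ratios of -0.37, -0.36 and -0.28 on the SH-80 arrays, all negative, for -0.34 ± 0.0565 (SE, n = 3), or 1.26-fold lower in the compound channel, with an adjusted p of 0.0280. It was negative on all 3 SH-42 arrays too, at -0.25, -0.23 and -0.38. Rrm1 had 0.23, 0.31 and 0.43, all positive, for 0.32 ± 0.0767, or 1.25-fold higher, with an adjusted p of 0.0424. On SH-42 arrays it was -0.06, 0.16 and 0.25. Dlgap5 had -1.16, -0.88 and -1.47, for -1.17 ± 0.218 and an adjusted p of 0.0294 by limma. It was not well above background in Cy3 on any array, so only a bound applies, at least 1.16-fold lower in Cy3. Its second probe, also dim in Cy3, read -0.44, -0.60 and -0.42. Features dim in Cy3 on all arrays, 3704 of them, had a median of -0.16 for SH-80 and passed in 20.2%, against -0.01 and 13% for 18228 features above background in both channels.

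**Figure D4:**
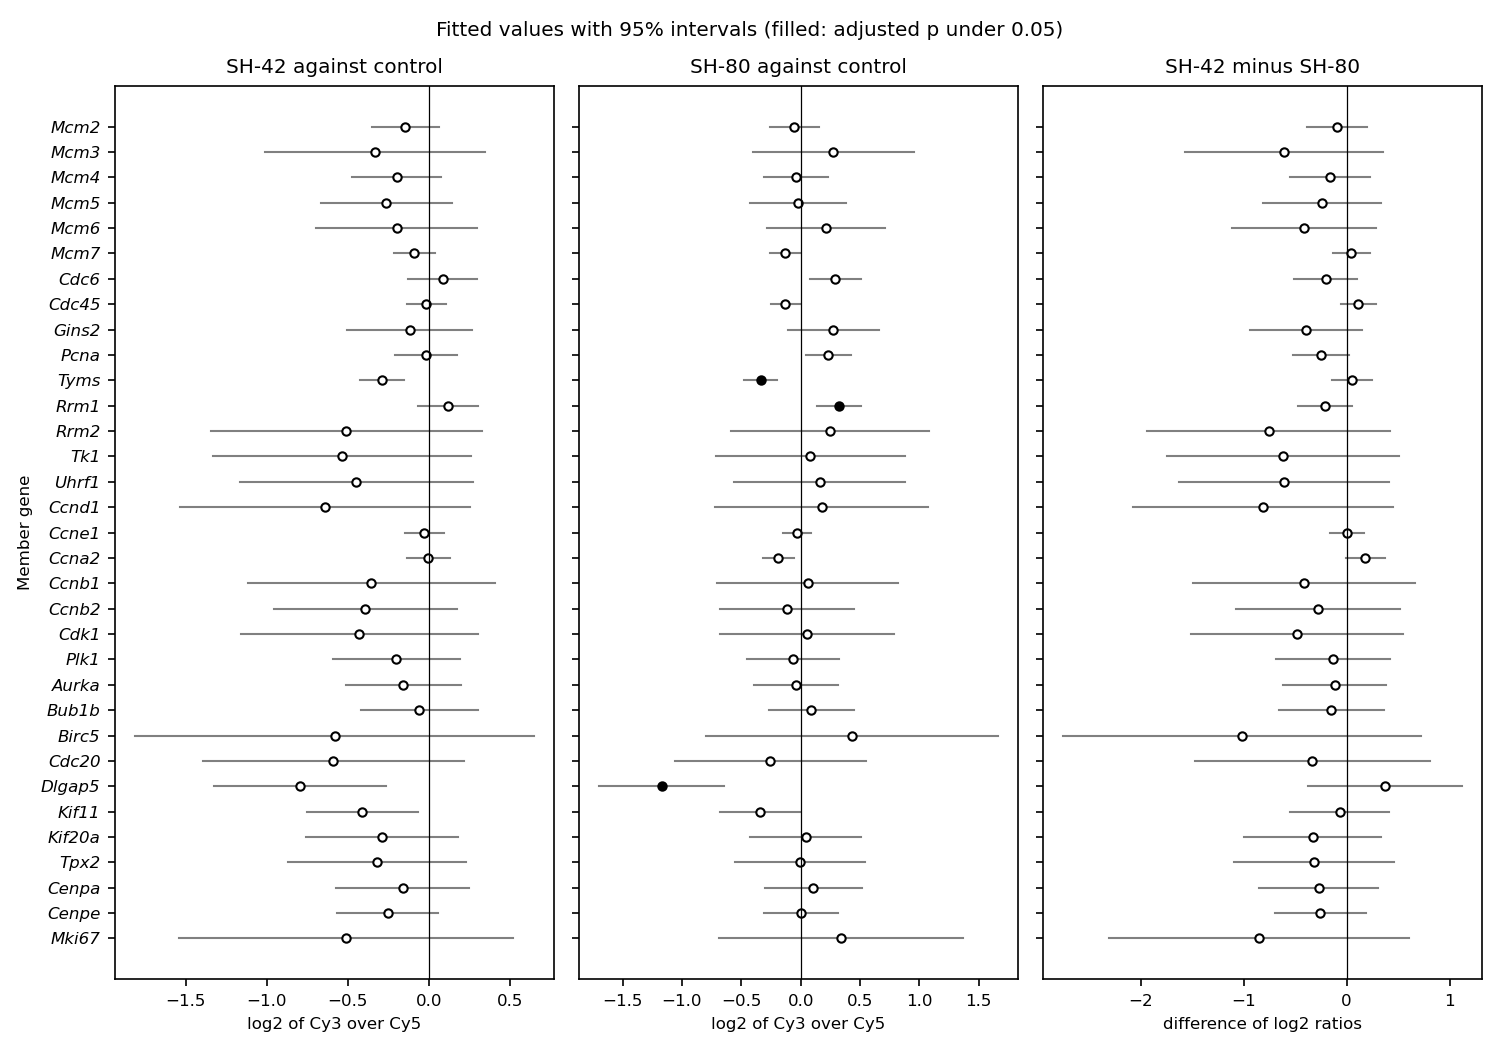
Fitted log2 of Cy3 over Cy5 for SH-42 and SH-80 against control, and their difference (horizontal axes, with a scale of their own in each panel), for 33 members (vertical axis), with 95% intervals from limma over 3 arrays per compound. Filled points have an adjusted p under 0.05, which only Tyms, Rrm1 and Dlgap5 for SH-80 have, and the widest intervals belong to Birc5, Mki67 and Ccnd1.

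The SH-80 count depended on SH-42 replicate 1, which enters the shared estimate of spread. Without that array 10 members passed, 6 higher and 4 lower, where 38.8% of all features did. Beyond the 3 above these were Pcna at 0.23 (adjusted p of 0.0280 by limma), Gins2 at 0.28, Mcm3 at 0.28 and Mcm6 at 0.21, and on the lower side Ccna2 at -0.19. The remaining 2, Cdc6 with a positive and Kif11 with a negative fitted ratio, were not well above background in Cy3 on any array, and no fold can be given for them on the SH-80 arrays. Neither count stood above the background share. With the slide as a fixed block 0 members and 0 features passed, with 2 members and 2987 features at an unadjusted p under 0.05. All SH-80 arrays lie on 1 slide, so the slide term came only from SH-42 replicates 1 and 2 against replicate 3. It carries SH-42 replicate 1 into the SH-80 values, and the fit cannot show how SH-80 depends on the slide. With the SH-80 arrays fitted alone, the same 10 passed, where 9197 features did. Fitting their slide alone gives the same SH-80 result, since its single SH-42 array adds nothing to the estimate of spread. Leaving out any SH-80 array left 0 members and 0 features, with 3 to 5 members and 4664 to 5929 features at an unadjusted p under 0.05. Birc5, Mki67 and Ccnd1 did not pass in any of these fits; Birc5 had 0.85, -0.12 and 0.56 on the SH-80 arrays and Mki67 0.70, -0.29 and 0.61, so that both changed sign on SH-80 replicate 2. On that array the log2 of the summed Cy5 signal was 12.59 for skeletal muscle markers and 13.40 for cornea and surface epithelium markers. On the other SH-80 arrays it was 9.67 to 9.82 and 9.37 to 9.43, and the part of these markers was not tested.

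Where a channel was dim on all arrays of a compound, only bounds apply, and they come from the mean over its 3 arrays. In SH-42 arrays 26 of the 36 members were measured, 9 were dim in Cy3 and Aurkb was dim in both channels. Tk1 was then at least 1.35-fold lower in Cy3 than in Cy5, Ccnb1 at least 1.23-fold, Tpx2 at least 1.18-fold, Kif20a at least 1.15-fold, Kif11 at least 1.14-fold, Dlgap5 at least 1.22-fold and Top2a at least 1.09-fold. Of these, Tk1, Ccnb1, Tpx2 and Kif20a had log2 ratios below -0.05 only on SH-42 replicate 1 among the SH-42 arrays. Top2a had -1.29, -0.02 and -0.09 on the SH-42 arrays in their order, with Cy5 well above background on 1 of them. The bounds thus include SH-42 replicate 1, and none was computed without it. For Cdc6 and Bub1 no fold could be given. In SH-80 arrays 24 were measured, 10 were dim in Cy3, and Aurkb and Bub1 were dim in both channels, with a bound for Dlgap5 alone.

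SH-42 and SH-80 could not be told apart on these genes. In SH-42 minus SH-80, with the same dose and day, 0 members passed by limma, as did 0% of all 24078 features; at an unadjusted p under 0.05 there were 0 members and 942 features. The largest fitted differences were those of Birc5 at -1.01, with a 95% interval from -2.75 to 0.72, Mki67 at -0.85 from -2.31 to 0.60 and Ccnd1 at -0.82 from -2.08 to 0.45. Without SH-42 replicate 1 they were -0.17 from -0.85 to 0.51, -0.17 from -0.89 to 0.55 and -0.20 from -0.71 to 0.30. Genes with little spread had narrow intervals: Tyms differed by 0.05, from -0.14 to 0.24, Ccne1 by 0.00, from -0.17 to 0.17, and Mcm7 by 0.04, from -0.14 to 0.22. Rrm1 differed by -0.21, from -0.47 to 0.05. Taken by channel, 0 members differed between the compounds in Cy3 signal, with a median difference of 0.01 and 1 member at an unadjusted p under 0.05 (2233 of all features), and 0 in Cy5, with 0.26 and 0 (870 of all features). These wide intervals do not show that the compounds act alike.

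Other genes of the cycle, listed by function, were read beside the members. Of 24 further replication genes 23 were measured, and for SH-80 4 passed, all higher, where 14.7% of all features passed: Dbf4, the activator of the origin-firing kinase Cdc7, at 1.07 ± 0.185 (SE, n = 3), the histone mRNA binder Slbp at 0.38 ± 0.0676, Gins3 at 0.32 and the flap nuclease Fen1 at 0.24. Dbf4 had 0.86, 1.07 and 1.29 on the SH-80 arrays and 0.81, 0.20 and 1.20 on the SH-42 arrays, positive on all 6, though its Cy5 signal was well above background on only 1 of the SH-80 arrays. Of 21 measured mitosis genes 2 passed, the securin Pttg1 at -0.26 ± 0.0512 and Hmmr at -0.39 ± 0.0957, both lower. Of 18 G1 and E2F genes 2 passed, both lower, E2f7 at -0.50 ± 0.0863 and Mybl2 at -0.34 ± 0.0737. Of 21 CDK inhibitors and exit genes 4 passed, all lower: Cdkn1b at -0.37 ± 0.0682, Lin52 at -0.39 ± 0.0794, Btg1 at -0.38 and Lin37 at -0.27. For SH-42 and for the difference, 0 passed in each list. These SH-80 counts and their directions depended on the arrays in the fit. Without SH-42 replicate 1, where 38.8% of all features passed, 6 replication genes were higher and 3 lower, 2 mitosis genes higher and 4 lower, 3 G1 and E2F genes higher and 4 lower, and 6 inhibitors and exit genes higher and 5 lower. Without any 1 of the SH-80 arrays, or with the slide as a fixed block, none passed in any list, as for all features.

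**Figure D5:**
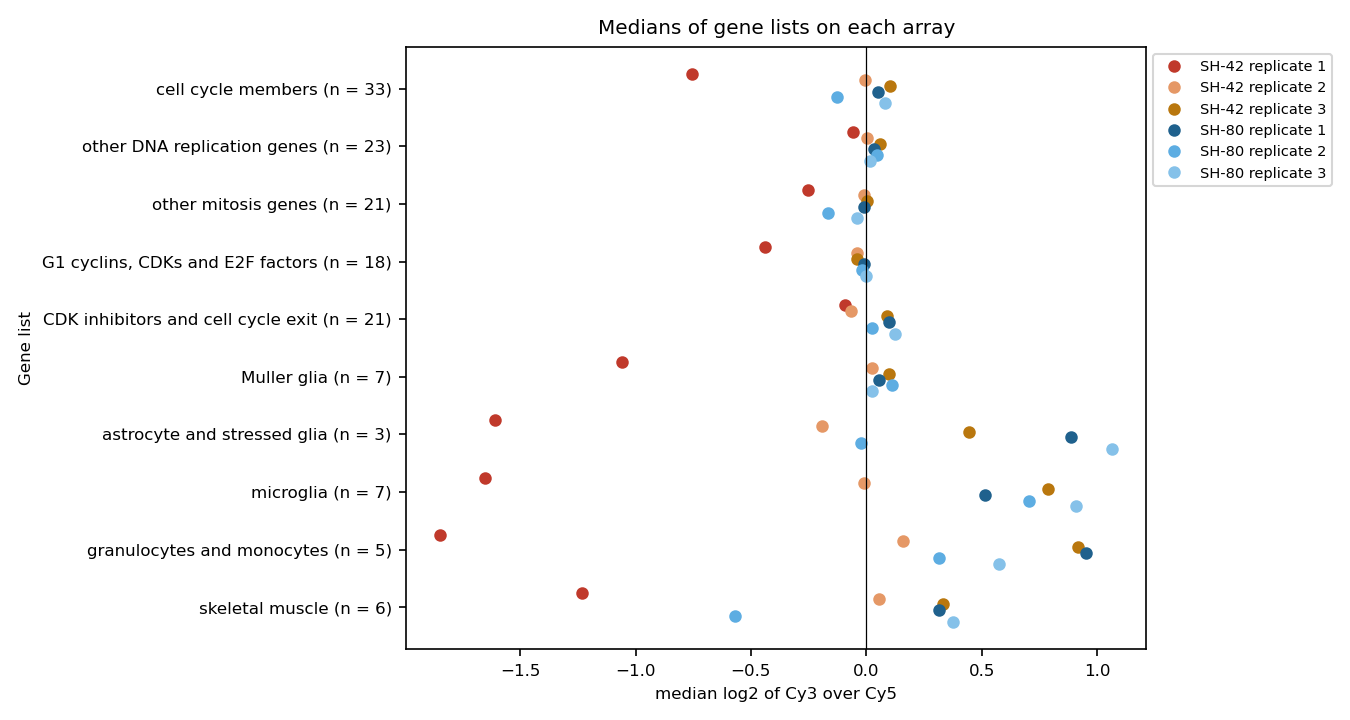
Median log2 of Cy3 over Cy5 (horizontal axis) of the members and of other gene lists (vertical axis, n measured genes) on each of the 6 arrays (points). The SH-42 replicate 1 point of the members, at -0.75, lies apart from the other arrays, as do those of glial, microglial and granulocyte and monocyte markers, while that of other DNA replication genes is at -0.06.

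On SH-42 replicate 1 these lists were read in the same way, against the 5.57% of all features that were at least 2-fold higher in Cy5. In that channel, 1 of 23 further replication genes was at least 2-fold higher, Chaf1b by 1.01 on the log2 scale, a share under that of all features, and their median excess was 0.08. Among mitosis genes 4 of 21 were, Prc1 by 1.83, Ube2c by 1.36 and Anln and Cdca8 by 1.32 each, with a list median of 0.36. Of the G1 and E2F genes 5 of 18 were: Ccnd2 by 2.17, E2f6 by 1.69, E2f2 by 1.52, E2f1 by 1.41 and Ccnd3 by 1.11, with a list median of 0.28. CDK inhibitors and exit genes, which hold cells out of the cycle, reached 2-fold in 5 of 21, Cdkn2a by 3.35, Cdkn2b by 2.63, Cdkn1a by 2.41, Gadd45b by 1.82 and Gadd45g by 1.22, with a list median of 0.11. The larger part of each list thus stayed under 2-fold. The Cdkn2a probe was well above background in Cy5 on 1 array only. The genes named in these 4 counts were chosen after their values were seen.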

How the data were processed

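Each of the 6 scanner files holds, per the file headers, the deposited spot intensity and local background of both channels and a log10 ratio of processed Cy5 over Cy3. Agilent Feature Extraction wrote them, version 11.0.1.1 per the file headers and 9.3.2.1 per the submitters' processing notes. The deposited value table holds log2 ratios of the authors. Median intensities were corrected by normexp (offset 50) and loess within arrays; spots flagged as outliers were left out, and spots of a probe averaged. Of 39429 probes 26055 (66.1%) had a symbol in the RefSeq table of GRCm38.p6, used for names; the headers' grid is mm9. A probe was kept if either channel was well above background on 3 or more arrays, and the brightest probe stood for a gene. Limma 3.58.1 (lmFit, eBayes) in R 4.3.3 was fitted with 1 coefficient per compound over all 6 arrays, p-values adjusted by Benjamini-Hochberg, all two-sided, and was tested on simulated data. Channel signals were also scaled by Aquantile. A bound sets the brighter group's mean against the higher, per array, of the dim signal and the lowest signal among probes well above background. Precision is limited by having 3 arrays per compound. The rule for named genes took per-array values of members above background in both channels on all arrays, of those past the threshold and of those with the widest ratio range, and up to 3 genes of smallest p per list. Replicate numbers do not pair the arrays. The members, lists and tests were chosen with earlier results of these data known. Alternatives covered background correction, source of values, normalization, probe filter, slide, replicate block and each array left out. Figures were drawn with matplotlib 3.10.9. The result of a marker gene in the lists is not reported here.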

Additional observations from a re-analysis of the deposited data

Results flagged for a closer look

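Among the 6 Cy5 signals of each of the 33 members, all labelled control, 20 members had 1 array whose gap to the nearest other array passed Dixon's 95% limit for 6 values, and in all 20 that array was SH-42 replicate 1. Of all features, 22.6% had such an array and in 20.2% it was SH-42 replicate 1, so the members share this with many other genes. Chance alone marks about 1 in 20 such groups, but genes read on the same array are not independent. In 19 of the 20 the array was the highest. Its log2 Cy5 signals were, for helicase and origin genes, 10.25 for Mcm3, 9.51 for Mcm5, 11.36 for Mcm6, 7.17 for Cdc6 and 8.36 for Gins2. Cdc45, at 7.99, was the lowest of its 6 and lies under the next array, at 8.06, by little. For nucleotide supply and chromatin copying they were 9.36 for Rrm2, 8.84 for Tk1 and 8.95 for Uhrf1. The cyclins and their kinase gave 8.68 for Ccnb1, 9.47 for Ccnb2, 12.54 for Ccnd1 and 9.05 for Cdk1. The mitotic kinases and passenger genes gave 9.38 for Plk1, 9.04 for Aurka and 10.80 for Birc5. Spindle and chromosome genes gave 8.22 for Kif20a, 8.31 for Tpx2, 8.80 for Cenpa and 10.54 for Mki67. The cause was not tested.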

How the results depend on the processing

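No member past the threshold with either setting changed sign under any alternative run. Medians over the members, which carry no test, did in 13 of 81. That of SH-42, -0.26, became 0.05 without SH-42 replicate 1 and 0.10 on slide 2 alone. That of SH-80, near 0, turned in 7 of 20, and SH-42 minus SH-80, at -0.25, became 0.02 with the slide as a fixed block or on slide 2 alone. The Cy3 difference turned in 2 of 11, to -0.0154 without SH-80 replicate 2, and the Cy5 difference in 0 of 11, though it fell to 0.0086 without SH-42 replicate 1. For SH-42 against control, 0 members and 145 features passed the threshold in the main fit. With no background correction 3 members passed (Dlgap5, Kif11 and Tyms), where 3183 features did. The same 3 passed with processed signals, where 4358 features did. The deposited value table gave 2 members and 3774 features. Median centring without loess gave 10 members and 9036 features, so the member counts rose along with those of all features. For SH-80, 3 became 1 with scale normalization, where 641 features passed. The count became 10 with the SH-80 arrays alone, where 9197 features passed. Their slide alone, chosen after seeing the data, is the same fit for SH-80. With the slide as a fixed block the SH-80 count was 0, as for all features, and the members' median moved from 0.04 to -0.24. That slide term came from the SH-42 arrays alone, SH-42 replicate 1 among them. With the SH-80 arrays alone and their slide alone counted apart, Tyms passed in 15 of 20 alternatives, Dlgap5 in 14 of 19 and Rrm1 in 9 of 20. Leaving out each array gave 0 to 10 for SH-80, 10 when SH-42 replicate 1 was dropped (9344 features) and 0 when an SH-80 array was (0 features). The Cy3 difference between compounds moved from 0.0059 to 0.0445 with no background correction. With the strict filter, chosen after seeing the data, 7 of 23 members were at least 2-fold higher in Cy5 of SH-42 replicate 1, against 14 of 33. Of all features, 1340 of 24078 were so with the main filter. With the strict filter, which keeps fewer features, 1152 were, so the 2 counts are not over the same total. The replicate block left 0 members for SH-42 (144 features), 3 for SH-80 (3465 features) and 0 between compounds (0 features) and moved no median. Same-numbered arrays correlated at -0.15, -0.43 and 0.18, so the numbers do not pair them. Of 87 counts under alternatives, 74 stayed within 1.5 times, 7 were higher and 6 lower. The causes were not tested. Dim Cy3 signals limit 10 of the 33 members to bounds or to values near background.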
